A study of Mus musculus with 4 samples.

Results

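Natural killer (NK) cells were examined among the CD45-positive cells of mouse mammary tumours by droplet single-cell RNA sequencing. They were taken as the barcodes that the authors' annotation names NK_cell and that have a column in the count table, 111 of 16383 cells, of which 58 carried barcode suffix 1 and 53 carried suffix 2. The annotation as a whole gives this name, 1 of 23, to 611 of 45781 barcodes. Tumours of 4T1, a mammary carcinoma line derived from BALB/c mice, were grown in that strain. The line was wild-type in 1 group and Mif-depleted in the other; Mif encodes a cytokine that acts on macrophages and lymphocytes. The labels place the depletion in the tumour line and name no alteration of the mice, so the NK cells themselves are host cells in both groups. Each of the 2 groups had 2 samples, and each sample combined 3 tumours. In all samples red cells were lysed, dead cells were removed and CD45-positive cells that excluded propidium iodide were sorted, so that cells without CD45 were gated against and no tissue other than tumour was sampled. No label or file header ties a suffix to a sample. Each suffix was taken as 1 sample of unknown group, an assumption that rests on there being 4 suffixes and 4 samples. Suffixes are described apart, and no value below compares wild-type with Mif-depleted tumours. Mif was not analysed here.

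NK cells are innate lymphocytes that kill stressed or transformed cells without prior antigen recognition. They release perforin and granzymes, engage death receptors through ligands such as Fas ligand, and integrate signals from activating and inhibitory receptors. Some of the activating receptors signal through the adaptor encoded by Fcer1g. Interleukins from myeloid cells, interleukin-18 among them, drive the cytokine output of NK cells, and in tumours NK cells are known as a source of XCL1, a chemokine that attracts cross-presenting dendritic cells.

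The 3 genes given as markers of these cells are Xcl1, Fasl, the gene of Fas ligand, and Cd160, a membrane receptor of cytotoxic lymphocytes. On GRCm38, GENCODE places Xcl1 at chr1:164931644-164935527 and Fasl at chr1:161780689-161788495, both on the minus strand, and Cd160 at chr3:96798763-96829351, also on the minus strand. The chains of the interleukin-18 receptor, Il18r1 and Il18rap, lie on the plus strand at chr1:40465552-40500854 and chr1:40515362-40551705. All 5 are protein-coding genes. The 250 bases before the RefSeq start of Xcl1, Fasl, Cd160 and Il18rap (build GRCm38.p6, at chr1:164935523-164935772, chr1:161788496-161788745, chr3:96829352-96829601 and chr1:40515112-40515361) are shown 5′ to 3′ on the gene's strand, because NK cells had the 3 marker genes and Il18rap above a 2-fold ratio to all other cells in both suffixes. Capitals mark matches, on either strand, to TGTGGT, the core bound by RUNX factors such as Runx3, or to GGTGTGA, the core bound by T-box factors. The matches do not overlap.
Xcl1: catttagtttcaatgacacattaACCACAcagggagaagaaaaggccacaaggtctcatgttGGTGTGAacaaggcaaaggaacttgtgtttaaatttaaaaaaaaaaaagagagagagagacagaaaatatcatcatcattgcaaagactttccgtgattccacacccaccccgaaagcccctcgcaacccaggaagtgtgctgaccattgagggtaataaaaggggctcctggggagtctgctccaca
Fasl: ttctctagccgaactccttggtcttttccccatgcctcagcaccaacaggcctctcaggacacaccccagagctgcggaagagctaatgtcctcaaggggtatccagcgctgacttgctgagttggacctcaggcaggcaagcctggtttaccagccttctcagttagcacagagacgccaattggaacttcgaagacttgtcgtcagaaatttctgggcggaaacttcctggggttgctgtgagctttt
Cd160: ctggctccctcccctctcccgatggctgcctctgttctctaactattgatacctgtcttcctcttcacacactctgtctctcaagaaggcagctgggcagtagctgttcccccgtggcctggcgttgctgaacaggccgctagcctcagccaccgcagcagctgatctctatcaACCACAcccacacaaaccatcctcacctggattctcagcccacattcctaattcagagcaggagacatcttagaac
Il18rap: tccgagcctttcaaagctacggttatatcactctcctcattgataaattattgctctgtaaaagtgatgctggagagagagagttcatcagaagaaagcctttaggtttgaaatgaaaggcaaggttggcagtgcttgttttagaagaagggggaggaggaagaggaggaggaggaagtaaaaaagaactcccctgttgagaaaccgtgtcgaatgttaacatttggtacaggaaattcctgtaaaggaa

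The Xcl1 window held 1 match to TGTGGT, which ended 221 bases before the start, and 1 to GGTGTGA, 181 bases before it. The Cd160 window held 1 match to TGTGGT, 70 bases before the start of the RefSeq entry used, the nearer of 2 to the GENCODE start. Neither motif was found in the Fasl and Il18rap windows, and TTCNNNGAA, the motif of STAT factors, was in none of the 4. Of 32851 RefSeq promoter windows of the same length, 14.05% held TGTGGT, 3.33% held GGTGTGA and 7.02% held TTCNNNGAA. A match is a description of letters and not a bound site.

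Counts of unique molecules (UMIs) were used for 4099 genes on chromosomes 1 to 4 and part of chromosome 5. The 58 NK cells of suffix 1 held 50710 UMIs of these genes, with a median of 682 per cell (101 to 3381), and the 53 of suffix 2 held 41483, with a median of 655 (103 to 3376). The richest single cell gave 6.67% and 8.14% of these UMIs. NK cells were shallower than CD8_Tex cells, the exhausted CD8 T cells of the annotation (527 and 267 cells, medians 3292 and 1930), and close to the pooled CD4 T cell names (1112 and 269 cells, medians 655.5 and 913). Between 24 and 42 barcode sequences were shared by a pair of suffixes, and 0 were NK_cell in both. Levels are UMIs per 10000 UMIs of the counted genes, summed over the cells of a name within a suffix. Values in brackets are exact 95% intervals. They cover counting error alone, since cells of a sample are not replicates. No test was run, and no difference between names has a replicate check. A ratio is called above or below 2-fold when its interval lies wholly beyond a 2-fold ratio and the gene has 50 or more UMIs over both sides. The annotation may rest on the same genes, so a ratio to other cells describes the NK cells and does not test their name.

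NK_cell barcodes made up 0.441% [0.335, 0.569] of all annotated barcodes in suffix 1, 1.84% [1.61, 2.10] in suffix 2, 1.31% [1.09, 1.56] in suffix 3 and 1.86% [1.62, 2.13] in suffix 4, from 58, 220, 122 and 211 cells. Suffix 1 stood lowest, and the intervals of suffixes 2 and 4 overlapped. Among the barcodes with lymphocyte names (B, CD4, CD8 and NK) the shares were 1.67% [1.27, 2.15], 5.89% [5.16, 6.69], 9.47% [7.93, 11.2] and 5.33% [4.65, 6.07], which put suffix 3 highest. Suffix 3 held 238 barcodes of CD4 names, against 1112, 1035 and 1135 in suffixes 1, 2 and 4. Relative to CD8_Tex cells, the other cytotoxic name, NK_cell barcodes were 9.91% [7.61, 12.6] of both names together in suffix 1, 18.0% [15.9, 20.3] in suffix 2, 25.6% [21.7, 29.7] in suffix 3 and 18.0% [15.8, 20.3] in suffix 4. Suffix 1 was thus the lowest on each of these denominators, while the order of the other suffixes depended on the denominator. In suffix 2, counts were used for 53 of the 220 NK cells, and their share of the 3221 cells with counts was 1.65% [1.23, 2.15].

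**Figure D1:**
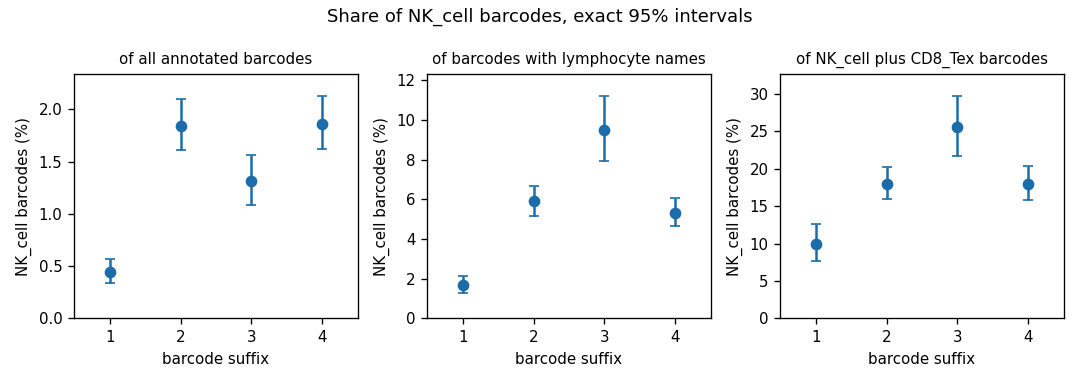
Share of NK_cell barcodes (y axis, percent) in each barcode suffix (x axis) of all annotated barcodes, of barcodes with lymphocyte names and of NK_cell plus CD8_Tex barcodes; points are shares and bars exact 95% intervals. Suffix 1 is lowest in all 3 panels (0.441%, 1.67% and 9.91%), and suffix 3 is highest in the middle and right panels (9.47% and 25.6%).

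The name may rest on the marker genes, so their levels describe the cells and do not test the name. Of 11 NK marker genes 3 were measured, Xcl1, Fasl and Cd160, and each was above a 2-fold ratio to all other cells in both suffixes. Their summed level was 95.1 UMIs per 10000 in suffix 1, against 0.880 in other cells, and 120.8 in suffix 2, against 1.15. Xcl1 gave 440 of the 482 marker UMIs in suffix 1 and 453 of the 501 in suffix 2. The granule genes Gzma and Prf1 were not analysed here. Of 15 T cell marker genes 4 were measured, and their summed level of 18.3 [14.8, 22.5] and 16.6 [12.9, 21.1] in the NK cells exceeded that of all other cells (5.41 and 7.13) but was below that of the pooled CD4 names (87.4 and 77.6) and of CD8_Tex (23.4 and 31.1). Cd28 gave 54 of the 93 and 38 of the 69 UMIs. Of 10 marker genes of type 2 and type 3 innate lymphoid cells 4 were measured: Gata3 had 28 and 31 UMIs, and Il1rl1 had 0 and 4. B cell markers had 4 and 0 UMIs over 5 measured genes, monocyte markers 4 and 19, dendritic cell markers 4 and 3, osteoclast markers 20 and 29, mast cell and basophil markers 1 and 7, epithelial tumour cell markers 14 and 8, and fibroblast markers 2 and 1. The macrophage genes C1qa, C1qb and C1qc together reached 8.68 and 8.20, with at most 3 UMIs in any NK cell, against 430 and 422 in macrophages named Macro_Maf and 6.06 and 6.76 in neutrophils. The neutrophil genes S100a8 and S100a9 together reached 57.4 and 31.3, against 5850 and 5770 in neutrophils and 70.0 and 27.6 in the CD4 names.

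Against all other cells of the suffix, 174 of 3514 genes stood above a 2-fold ratio in suffix 1 (4.95%) and 130 of 3087 in suffix 2 (4.21%), and 83 and 73 stood below (2.36% in both). The median log2 ratio over all genes tested was 0.16 and 0.08. The counts depend on the neutrophil transcripts in the reference: without S100a8 and S100a9 the median shifted by -0.39 and 101 genes were above in suffix 1, each among the 174, and without neutrophils 96 were above, 94 of them among the 174. Of the 174 genes, 82 were also above in suffix 2, which is 47.1% of the first list and 63.1% of the second, and of the 83 genes below, 60 were below in both (72.3% and 82.2%). Small counts lie behind part of these lists, since 13 of the 174 and 53 of the 83 rest on 3 or fewer NK UMIs in suffix 1. Genes such as Gm14029, Gm10522 and Gm43254 were above in suffix 1 on 3, 3 and 2 UMIs and had 0, 0 and 1 in suffix 2, while Bcas1 was above in suffix 2 on 7 UMIs from 1 cell and had 0 in suffix 1. They are not described further. Genes of myeloid cells were among those below: Csf3r, the receptor of the granulocyte growth factor, had 1 UMI in each suffix, with log2 ratios of -5.77 [-11.07, -3.29] and -4.41 [-9.71, -1.93], and Il1b, an inflammatory cytokine, stood at 2.96 and 4.10 against 78.1 and 73.1, with log2 ratios of -4.72 [-5.56, -4.00] and -4.16 [-4.94, -3.48].

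Of the effector genes measured, Xcl1 had the most UMIs. It had 440 UMIs in 29 of 58 NK cells of suffix 1 and 453 UMIs in 32 of 53 cells of suffix 2. Its level was 86.8 [78.8, 95.3] and 109 [99.4, 119.7], against 0.705 and 0.837 in all other cells. Among the 23 names NK cells ranked first in both suffixes, and the next name, CD8_Tex, stood at 7.65 [7.28, 8.02] and 6.02 [5.49, 6.59], so the intervals did not overlap. Fasl had 21 and 30 UMIs, levels of 4.14 [2.56, 6.33] and 7.23 [4.88, 10.3] against 0.108 and 0.189, and a log2 ratio to other cells of 5.26 in both suffixes ([4.55, 5.90] and [4.65, 5.83]). Cst7, which encodes cystatin F, an inhibitor of granule proteases, stood at 3.94 [2.41, 6.09] and 2.65 [1.32, 4.74]. Its ratio to other cells was above 2-fold in suffix 1 (log2 3.41) and not called in suffix 2 (1.83 [0.82, 2.68]), and CD4_Treg cells in suffix 1 and CD8_Tex cells in suffix 2 had overlapping levels (3.15 and 3.67). Tnfsf10, the death ligand TRAIL, was above 2-fold in both suffixes (log2 4.11 [3.26, 4.84] and 2.77 [1.44, 3.84]), on 15 and 7 UMIs, 5 of them from a single cell in each suffix. Its level of 2.96 and 1.69 was shared by other lymphocytes, CD4_Th cells in suffix 1 (3.15) and CD8_Tex cells in suffix 2 (1.58). In all, 4 of 22 effector genes were measured, and 4 and 3 were above and 0 below (4.95% and 4.21% above and 2.36% below over all genes tested). Their median log2 ratio was 4.68 and 4.02, against 0.16 and 0.08 over all genes.

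**Figure D2:**
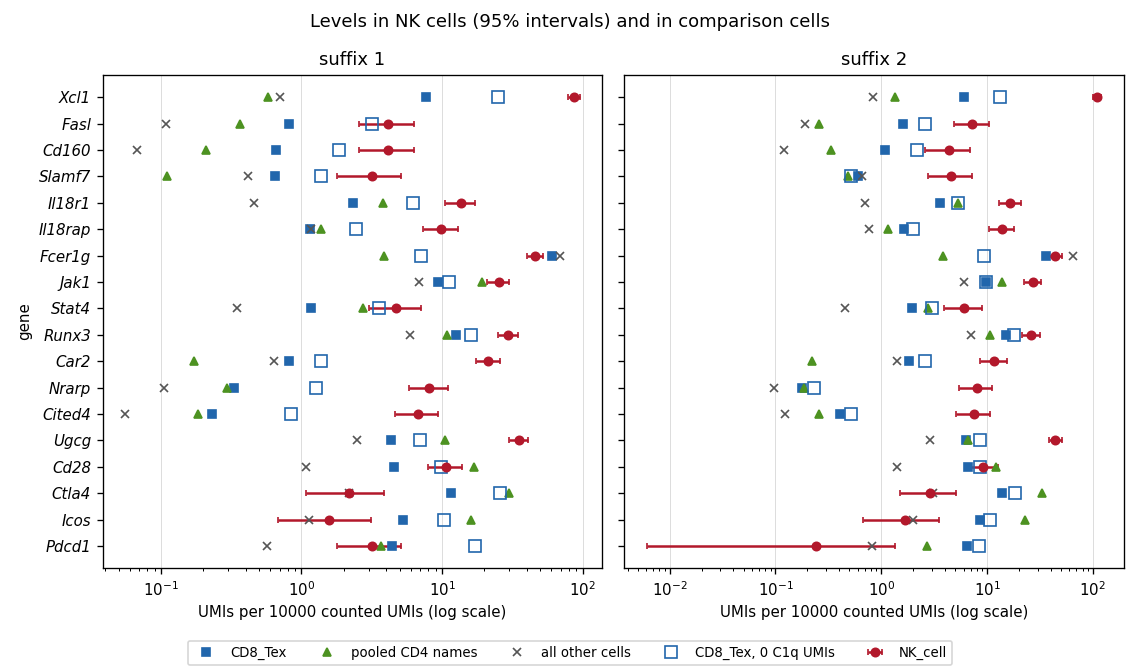
Levels of 18 genes (rows) in UMIs per 10000 counted UMIs (x axis, log scale) in NK cells, with exact 95% intervals, and in CD8_Tex cells, CD8_Tex cells with 0 C1q UMIs, pooled CD4 names and all other cells, for suffix 1 and suffix 2. Xcl1 in NK cells lies at 86.8 and 109, to the right of every comparison point, whereas Ctla4 (2.17 and 2.89) and Icos lie to the left of both T cell groups.

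Among the surface receptors Cd160 and, of the SLAM family, Slamf7 and Cd48 stood above other cells in both suffixes, Cd244a in suffix 1 only and Ly9 in suffix 2 only. Slamf1 (3 and 0 UMIs), Slamf6 (13 and 9) and Cd84 (23 and 14), also of that family, were not called in either. Cd160 had 21 and 18 UMIs, levels of 4.14 [2.56, 6.33] and 4.34 [2.57, 6.86] against 0.0674 and 0.119, and log2 ratios of 5.94 [5.22, 6.59] and 5.18 [4.37, 5.91]. NK cells ranked first for it in both suffixes, and the interval was separate from that of the next name in suffix 1 only (CD4_Th, 0.750 [0.244, 1.75]; CD4_Tfh in suffix 2, 1.95 [0.891, 3.70]). Slamf7, a self-binding activating receptor, stood at 3.16 [1.80, 5.12] and 4.58 [2.76, 7.15], above other cells by log2 2.92 [2.11, 3.63] and 2.81 [2.07, 3.47]. In suffix 1 it was higher in the dendritic cells named cDC1_Ccl22, at 7.13, and in B cells, at 4.06. In suffix 2 the level of B cells, 4.15 [3.73, 4.61], lay within the NK interval. Cd48, which binds the receptor encoded by Cd244a, was at 8.09 and 7.47 (log2 2.16 [1.68, 2.61] and 1.68 [1.12, 2.19]), a level that regulatory CD4 T cells shared (7.59 and 8.45). Cd244a itself was at 4.14 [2.56, 6.33] in suffix 1, first among the names, and at 1.45 [0.531, 3.15] in suffix 2, where its ratio of log2 1.64 [0.19, 2.78] was not called. Ly9 was called in suffix 2 alone, at log2 2.57 [1.56, 3.43] against 1.72 [0.09, 2.95] in suffix 1.

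The low-affinity Fc receptors were below the mixture of other cells, which is rich in myeloid cells. Fcgr3, the IgG receptor III through which NK cells kill antibody-coated targets, had 16 and 10 UMIs, levels of 3.16 and 2.41 against 16.7 and 13.3, and log2 ratios of -2.41 [-3.21, -1.71] and -2.46 [-3.52, -1.58]. Fcgr2b, the inhibitory IgG receptor, had 2 and 8 UMIs and log2 ratios of -4.43 [-7.47, -2.57] and -2.58 [-3.79, -1.60]. In suffix 1 the CD4 names had an Fcgr3 level of 0.929 (log2 1.76 [0.89, 2.56], not called), and CD8_Tex cells with 0 UMIs of the macrophage C1q genes one of 2.38 (log2 0.41 [-0.52, 1.26], not called), whereas all CD8_Tex cells had 17.3 (-2.45 [-3.26, -1.75]). Of 28 receptor genes 10 were measured, and 4 were above and 2 below in each suffix (4.95% and 4.21% above and 2.36% below over all genes tested). The median log2 ratio was 1.62 and 1.35, against 0.16 and 0.08 over all genes. Fcer1g, whose product is the signalling adaptor of that receptor, stood at 46.1 [40.4, 52.5] and 43.9 [37.7, 50.7], with UMIs in 48 of 58 and 42 of 53 NK cells. The log2 ratio to other cells was -0.59 [-0.78, -0.40] and -0.57 [-0.79, -0.36], not called; macrophages named Macro_Ccl12 reached 137 and 144. Against the CD4 names, at 3.86 and 3.83, Fcer1g was above 2-fold in both suffixes (log2 3.58 [3.33, 3.83] and 3.52 [3.16, 3.88]).

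Several signalling genes that NK cells share with T cells stood above other cells. Ptprc, which encodes CD45, the antigen of the sort, stood at 71.0 [63.8, 78.7] and 81.7 [73.3, 90.9] against 20.3 and 17.6, first among the names in both suffixes, with an interval apart from that of CD4_Tfh (61.7 [56.6, 67.2] and 55.4 [48.8, 62.6]) in suffix 2 only. Lck, the Src-family kinase of lymphocyte receptors, stood at 10.6 and 11.1, log2 3.64 [3.22, 4.02] and 3.04 [2.59, 3.47] above other cells and close to the CD4 names (10.2 and 10.3; log2 0.06 [-0.36, 0.46] and 0.11 [-0.37, 0.57]). Ptpn22, a phosphatase that dampens such kinases, was at 17.0 and 15.2 (log2 3.55 and 3.12), Sh2d2a, an adaptor that binds Lck, at 9.86 and 6.51 (4.18 and 3.03), and Prkcq, protein kinase C theta, at 4.14 and 2.89 (4.12 and 3.54). These 5 genes were above 2-fold in both suffixes. Cd247 and Zap70, the CD3 zeta chain and the kinase it recruits, and Sh2d1b1, an adaptor of SLAM receptors, were above in suffix 1 only, on 11, 8 and 12 UMIs. In the group of adaptors and kinases 14 of 25 genes were measured, and 8 and 5 were above and 2 and 0 below (4.95% and 4.21% above and 2.36% below over all genes tested). The median log2 ratio was 1.89 and 1.71, against 0.16 and 0.08 over all genes.

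Both chains of the interleukin-18 receptor, encoded by neighbouring genes, were high. Il18r1, the ligand-binding chain, had 69 UMIs in each suffix, in 29 and 33 NK cells. Its level was 13.6 [10.6, 17.2] and 16.6 [12.9, 21.1] against 0.458 and 0.697, with log2 ratios of 4.89 [4.52, 5.24] and 4.58 [4.20, 4.94]. CD4_Th cells had overlapping levels, at 15.3 [12.5, 18.6] and 14.1 [11.1, 17.6]. Il18rap, the accessory chain, had 50 and 57 UMIs in 30 and 34 cells, and levels of 9.86 [7.32, 13.0] and 13.7 [10.4, 17.8] against 1.17 and 0.758. The log2 ratios were 3.07 [2.64, 3.47] and 4.18 [3.76, 4.57]. NK cells ranked first for Il18rap in both suffixes, with CD4_Th next at 7.80 [5.83, 10.2] in suffix 1 and 2.53 [1.38, 4.25] in suffix 2, where the intervals were separate. Neutrophils also carried Il18rap (2.03 and 1.84), and without them the suffix 1 log2 ratio was 3.86. Jak1, a kinase of many other cytokine receptors, stood at 25.2 [21.1, 30.0] and 27.0 [22.2, 32.5] (log2 1.88 [1.62, 2.13] and 2.15 [1.87, 2.42]), and Stat4, which transmits interleukin-12 signals, at 4.73 [3.03, 7.04] and 6.03 [3.90, 8.90] (log2 3.78 [3.13, 4.36] and 3.73 [3.08, 4.31]). Other names had overlapping levels, CD4_Tn for Jak1 (25.4 and 17.8) and cDC1_Ccl22 for Stat4 (6.52 and 6.15). Neither gene was called against the CD4 names (log2 0.39 and 0.97 for Jak1, and 0.78 and 1.11 for Stat4). Il2ra, the alpha chain of the interleukin-2 receptor, had 9 and 5 UMIs and was below the CD4 names (log2 -2.08 [-3.22, -1.15] and -3.10 [-4.73, -1.86]). The group of cytokine receptors and JAK-STAT genes had 11 of 31 members measured, 4 and 4 above and 1 and 0 below (4.95% and 4.21% above and 2.36% below over all genes tested). Its median log2 ratio was 0.92 and 0.14, against 0.16 and 0.08 over all genes.

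Of the lineage transcription factors, Runx3, which in cytotoxic lymphocytes acts on effector genes, was above other cells in both suffixes. It had 149 and 109 UMIs, 19 and 32 of them in 1 cell, and its levels of 29.4 [24.9, 34.5] and 26.3 [21.6, 31.7] stood against 5.92 and 6.98 in other cells (log2 2.31 [2.07, 2.54] and 1.91 [1.63, 2.19]). NK cells ranked first for it in both suffixes, with an interval separate from that of the next name in suffix 1 (Macro_Ccl12, 16.1 [14.3, 18.1]). Gata3, best known from helper T cells and type 2 innate lymphoid cells, was at 5.52 and 7.47 (log2 3.06 and 2.78), below CD4_Th at 22.5 and 20.8. Tox, a regulator of lymphocyte development, and Lef1, a factor of naive T cells, were above other cells in both suffixes on 11 to 20 UMIs (log2 2.67 and 2.44, and 1.97 and 2.14). Lef1 was far below the CD4 names in suffix 1, at 3.94 against 24.2 (log2 -2.62 [-3.33, -1.99]), and its ratio in suffix 2 was -1.77 [-2.74, -0.95], not called. Ikzf2, which encodes Helios, stood at 8.48 and 7.96 against 69.1 and 75 in CD4_Treg. Zeb2, a factor of terminal NK maturation, was at 4.54 [2.88, 6.81] and 4.34 [2.57, 6.86], with 10.9 and 12.2 in other cells and 1.00 and 1.79 in the CD4 names. Of 32 factors 14 were measured, and 6 and 4 were above and 1 and 0 below (4.95% and 4.21% above and 2.36% below over all genes tested). The factor below was Id1, on 3 UMIs. The median log2 ratio was 0.81 and 0.35, against 0.16 and 0.08 over all genes.

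Adhesion and homing genes were mixed. Cd2, whose product binds CD48, stood at 10.6 and 13.3 (log2 2.69 [2.28, 3.08] and 2.70 [2.29, 3.09] to other cells), and Itga4, an integrin alpha chain, at 7.10 and 10.4 (1.78 [1.27, 2.25] and 2.52 [2.05, 2.96]). In the CD4 names Cd2 was higher, at 22.6 and 20.3 (log2 -1.09 and -0.62, not called). Itga4 was at 7.01 and 3.94 there (log2 0.02 and 1.39, not called). S1pr1, the receptor for egress from tissue, had 8 and 2 UMIs, and was below the CD4 names in both suffixes (log2 -3.52 [-4.73, -2.53] and -4.14 [-7.19, -2.27]). In this group 10 of 30 genes were measured, and 2 and 3 were above and 0 below (4.95% and 4.21% above and 2.36% below over all genes tested). The median log2 ratio was 0.83 and 0.06, against 0.16 and 0.08 over all genes, so in suffix 2 it was not above the latter.

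Of the costimulatory and checkpoint genes, Ctla4, Icos and Tnfrsf4 stood below the CD4 names in both suffixes, whereas Cd28 was not called against them. Cd28, the costimulatory receptor of T cells, stood at 10.6 [8, 13.9] and 9.16 [6.48, 12.6], with 54 and 38 UMIs in 29 and 24 NK cells, above other cells by log2 3.30 and 2.71 and at 17.0 and 12.2 in the CD4 names (log2 -0.68 [-1.10, -0.28] and -0.41 [-0.93, 0.08], not called). Icos and Ctla4, induced on activated and regulatory T cells, had 7 to 12 UMIs per suffix. Ctla4 was at 2.17 and 2.89 against 30.2 and 32.8 in the CD4 names (log2 -3.80 [-4.80, -2.96] and -3.50 [-4.46, -2.69]), and Icos at 1.58 and 1.69 against 16 and 22.8 (log2 -3.34 [-4.56, -2.36] and -3.75 [-5.07, -2.70]). Tnfrsf4, the costimulatory receptor OX40, was below them as well (log2 -4.45 and -3.89). Tnfrsf18, the receptor GITR, and Tnfsf8, the CD30 ligand, were above other cells in both suffixes (log2 2.61 and 2.28, and 2.25 and 2.59), Tnfsf8 on 10 UMIs in 6 cells of suffix 1 and on 16 in 3 cells of suffix 2, 8 of them in 1 cell. Against the CD4 names the log2 ratios were -1.16 and -1.08 for Tnfrsf18 and -1.05 and -0.37 for Tnfsf8, not called. Pdcd1, the inhibitory receptor PD-1, had 16 UMIs in 5 cells of suffix 1, 9 of them in 1 cell, and 1 UMI in suffix 2, with log2 ratios to other cells of 2.47 [1.66, 3.17] and -1.75 [-7.06, 0.73]. Of 21 genes 15 were measured. Against other cells 6 and 4 were above and 0 below (4.95% and 4.21% above over all genes tested). The median log2 was 1.27 and 0.30, with 0.16 and 0.08 over all genes. Against the CD4 names 0 were above and 4 and 3 below (1.56% and 2.04% below over all genes tested there). The median there was -1.16 and -1.08, with 0.09 and 0.07 over all genes tested.

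At least 1 UMI of a cell cycle gene was found in 35 of 58 NK cells of suffix 1 and 36 of 53 of suffix 2, and 3 or more in 15 and 11. Stmn1, a microtubule regulator of dividing cells, had 55 UMIs in 11 cells of suffix 1, 45 of them in the top 3 cells, and 44 in 10 cells of suffix 2, 34 of them in the top 3. Its level of 10.8 and 10.6 was above the CD4 names in both suffixes (log2 2.03 [1.58, 2.47] and 1.87 [1.30, 2.42]) and stood at 16.8 and 21.0 in CD8_Tex (not called). Of 18 measured cell cycle genes 0 were above or below other cells (4.95% and 4.21% above and 2.36% below over all genes tested). Against CD8_Tex 0 were above and 4 and 2 below (2.05% and 1.8% above and 2.7% and 2.08% below over all genes tested there). The median log2 ratio to CD8_Tex was -2.37 and -1.77, against -0.06 and -0.03 over all genes tested. Cells with 3 or more UMIs of these genes were 25.9% and 20.8% of NK cells, 72.1% and 68.9% of CD8_Tex and 20.1% and 33.1% of the CD4 names, at the median depths given above; the part of depth in these shares was not tested.

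Of 6 measured immediate early and stress genes, 4 stood above other cells in both suffixes (4.95% and 4.21% above over all genes tested). Dnaja1, a co-chaperone, stood at 105 [96.2, 114] and 70.9 [63.0, 79.5] against 26.3 and 24.1 (log2 1.99 [1.87, 2.12] and 1.56 [1.39, 1.72]) and 87.5 and 60.5 in the CD4 names. Nr4a2, an orphan nuclear receptor induced by activation, was at 27.2 and 19.3 (log2 2.00 [1.75, 2.24] and 1.53 [1.19, 1.85]), and in suffix 1 it was also above the CD4 names (1.79 [1.51, 2.06]; 1.33 [0.94, 1.71] in suffix 2, not called). The related Nr4a3 stood at 14.4 and 13.98 (1.46 and 1.65), and Btg2, an antiproliferative factor, at 56.2 and 37.4 (1.38 and 1.24). In the CD4 names Nr4a3 stood at 13.5 and 9.37 and Btg2 at 48.3 and 33.3, and neither was called against them. The median log2 ratio over the 6 was 1.42 and 1.39, against 0.16 and 0.08 over all genes. Against the CD4 names 1 and 0 of the 6 were above (1.62% and 1.61% over all genes tested there). The median there was 0.40 and 0.26, with 0.09 and 0.07 over all genes tested. Jun, at 37.5 and 22.9, and Atf3, at 15.97 and 10.4, were not called against other cells. Among interferon response genes 14 of 23 were measured and 13 tested; 2 were above in suffix 1 (Isg15 at 12.0 [9.20, 15.5] against 4.23, and Ifi208 on 4 UMIs) and 1 in suffix 2 (Ifi203 at 10.6 [7.71, 14.2] against 3.19). The shares over all genes were 4.95% and 4.21%, and the list's median log2 ratio was 0.91 and 0.24, against 0.16 and 0.08 over all genes. Isg15 in suffix 2 was at 6.03 against 5.09 (log2 0.24 [-0.39, 0.81]). Ribosomal protein genes, with 15 of 18 measured, had a median log2 ratio of 0.91 and 0.33 to other cells, and 1 of 15, Rps27 in suffix 1, was called (log2 1.11). Counted per cell instead of per UMI, its ratio was -0.26.

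The list medians above rank a gene with 0 NK UMIs lowest. With such genes at the floor of 3 counts, the medians to other cells were 1.42 and 0.91 for cytokine receptors and JAK-STAT genes, 2.02 and 0.35 for transcription factors, and 2.03 and 0.86 for costimulatory genes, and that of cell cycle genes to CD8_Tex was -2.01 and -1.60. Over all genes tested, the medians at this floor were 0.97 and 0.67 to other cells, and 0.07 and -0.02 to CD8_Tex.

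Several genes outside the lists of NK biology were among the highest ratios. Car2, which encodes carbonic anhydrase 2, is known from red cell precursors and osteoclasts. It had 108 and 48 UMIs in 32 and 21 NK cells, levels of 21.3 and 11.6 against 0.638 and 1.40, and log2 ratios of 5.06 and 3.05. NK cells ranked first for it in both suffixes, with intervals separate from those of the next name, cDC1_Clec9a (7.11 [6.54, 7.71] and 7.34 [6.81, 7.90]). Among the other erythroid markers measured, Epb41 had 20 and 13 NK UMIs, Tal1 had 0 and 1, and Ermap and Rhd had 0. Nrarp, a feedback regulator of Notch signalling, stood at 8.09 [5.80, 11.0] and 7.96 [5.48, 11.2] against 0.106 and 0.0972 (log2 6.26 [5.75, 6.73] and 6.35 [5.73, 6.95]), and Cited4, a transcriptional coactivator, at 6.70 [4.64, 9.37] and 7.47 [5.08, 10.6] against 0.0559 and 0.122 (log2 6.91 [6.33, 7.45] and 5.94 [5.31, 6.53]). For both genes no other name came within the NK interval: the next levels were 0.920 and 0.592 for Nrarp, and 1.20 and 1.27 for Cited4. Ugcg, glucosylceramide synthase, had 178 and 184 UMIs in 39 and 40 cells, and stood at 35.1 [30.1, 40.7] and 44.4 [38.2, 51.2] (log2 3.83 [3.61, 4.04] and 3.93 [3.70, 4.14]). The next name, CD4_Tn, stood at 18.1 and 13.9. Bcl2, which protects from apoptosis, was at 19.7 [16.04, 24.0] and 13.98 [10.6, 18.1] (log2 4.01 [3.71, 4.29] and 3.84 [3.43, 4.22]). CD4_Tcm cells stood higher for Bcl2 in both suffixes, at 23.9 and 16.7, with overlapping intervals. Against the pooled CD4 names Bcl2 was not called (log2 0.56 and 1.02). Dusp2, a phosphatase of MAP kinases, was at 49.3 and 38.6 (log2 3.08 and 2.37). Sla2, an adaptor that restrains receptor signalling, and the kinase gene Tnik were above on 11 to 23 UMIs (log2 4.57 and 3.87, and 4.27 and 3.79). For Tnik, CD4_Tcm cells had overlapping levels in both suffixes, and its ratio to the pooled CD4 names was not called (log2 0.56 and 0.61).

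NK cells were next compared with CD8_Tex cells, the other cytotoxic name. In suffix 1, 50 of 2443 genes stood above a 2-fold ratio (2.05%) and 66 below (2.7%), and in suffix 2, 32 of 1780 above (1.8%) and 37 below (2.08%). The lists of genes above shared 22 genes. They held Xcl1 (log2 3.50 [3.35, 3.66] and 4.18 [3.99, 4.37]), Fasl (2.34 and 2.18), Cd160 (2.66 and 2.00), Slamf7 (2.30 and 2.92), Il18r1 (2.55 and 2.21) and Il18rap (3.10 and 3.08) in both suffixes. CD8_Tex cells, however, carried macrophage transcripts: C1qa, C1qb and C1qc together stood at 202 and 98.1 in them against 8.68 and 8.20 in NK cells, and 48.0% and 19.5% of them had 5 or more such UMIs, against 0 NK cells in both suffixes. The comparison was therefore repeated with the 106 and 91 CD8_Tex cells that had 0 C1q UMIs, a restriction chosen after the data were seen. These cells had median depths of 1169.5 and 1509 UMIs and Xcl1 levels of 24.9 and 13.3, above those of all CD8_Tex cells.

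With the C1q-free CD8_Tex cells, 14 of 800 genes were above (1.75%) and 17 below (2.12%) in suffix 1, and 17 of 732 above (2.32%) and 13 below (1.78%) in suffix 2. Of the genes above all CD8_Tex cells, 7 of 50 and 13 of 32 were above these as well. Of the rest, 20 and 13 had under 50 UMIs over both sides in this smaller reference, and 23 and 6 were tested and not called above. Atp1b1, a sodium pump subunit, is among those without enough UMIs, with log2 ratios of 5.12 [3.43, 7.48] and 4.96 [3.61, 6.66]. The median log2 ratio over all genes tested was -0.04 and 0.01. Xcl1 was above in both suffixes, at log2 1.80 [1.61, 1.99] and 3.04 [2.81, 3.28], as were Il18rap (2.02 [1.41, 2.63] and 2.77 [2.14, 3.42]), Fcer1g (2.69 [2.38, 3.01] and 2.24 [1.92, 2.55]), Car2 (3.95 and 2.16) and Ugcg (2.33 [2.00, 2.67] and 2.37 [2.05, 2.69]). Fcer1g had not been above all CD8_Tex cells in either suffix. Il18r1 was above in suffix 2 only (log2 1.12 [0.67, 1.57] and 1.65 [1.18, 2.12]), as were Ptprc and Jak1. Fasl and Cd160 were no longer called, at log2 0.38 [-0.41, 1.12] and 1.48 [0.77, 2.18] for Fasl and 1.16 [0.31, 1.98] and 0.99 [0.09, 1.84] for Cd160. Runx3, at 16.1 and 18.0 in these T cells, was not called either (0.87 [0.57, 1.15] and 0.54 [0.21, 0.86]), nor was Cd28 (0.11 [-0.35, 0.56] and 0.09 [-0.47, 0.61]). The ratio of Cst7 was negative, -0.97 [-1.72, -0.29] and -1.12 [-2.16, -0.21], and not called. Below 2-fold in both suffixes were Pdcd1, at 3.16 and 0.241 against 17.1 and 8.33 (log2 -2.44 [-3.27, -1.72] and -5.11 [-10.42, -2.61]), Ctla4 (-3.57 [-4.58, -2.71] and -2.67 [-3.64, -1.84]) and Icos (-2.70 [-3.93, -1.69] and -2.66 [-4.00, -1.59]).

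**Figure D3:**
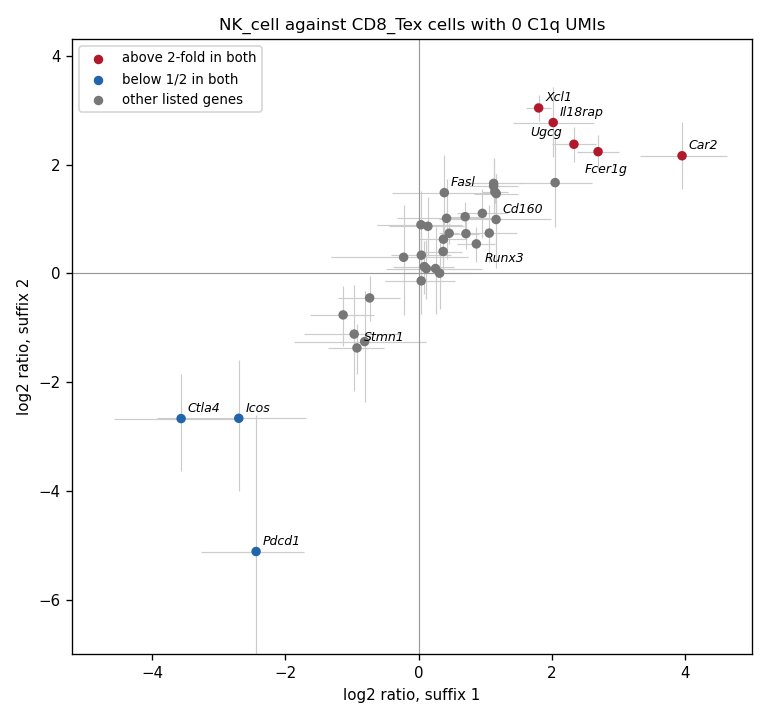
Log2 ratio of NK cells to CD8_Tex cells with 0 C1q UMIs in suffix 1 (x axis) and suffix 2 (y axis) for selected genes that were tested in both, with exact 95% intervals as grey lines. Xcl1 (1.80 and 3.04), Il18rap, Fcer1g, Car2 and Ugcg are above 2-fold in both suffixes, Ctla4, Icos and Pdcd1 are below, and Fasl, Cd160 and Runx3 are not called in either.

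Against the pooled CD4 names, whose depth and C1q level (10.7 and 9.11) were close to those of NK cells, 27 of 1664 genes were above a 2-fold ratio in suffix 1 (1.62%) and 26 below (1.56%), and 15 of 931 above in suffix 2 (1.61%) and 19 below (2.04%). The lists of genes above shared 11 genes and those of genes below shared 14. Xcl1, at 0.574 and 1.34 in the CD4 names, had log2 ratios of 7.24 [6.80, 7.71] and 6.35 [5.86, 6.88], and Car2 of 6.96 and 5.70. Fcer1g, Il18rap (2.85 [2.34, 3.34] and 3.57 [2.92, 4.26]), Il18r1 (1.83 [1.43, 2.21] and 1.66 [1.22, 2.08]) and Ugcg (1.75 [1.51, 1.98] and 2.75 [2.45, 3.06]) were above in both. Fasl was above in suffix 1 (3.50 [2.62, 4.35]) and had under 50 UMIs over both sides in suffix 2. Below the CD4 names in both suffixes, next to Ctla4, Icos, Tnfrsf4, S1pr1 and Il2ra, stood Penk, the gene of the opioid precursor proenkephalin, with 1 and 0 NK UMIs against levels of 3.49 and 6.36 (log2 -4.15 [-9.46, -1.66] in suffix 1), and Ass1, of arginine synthesis, with 1 and 0 against 4.97 and 4.28 (log2 -4.66 [-9.96, -2.17] in suffix 1). Dapl1, a gene of naive and memory T cells, had 0 NK UMIs in both suffixes against 10.3 and 6.29; set at the floor of 3 counts per suffix, its log2 ratio was -4.13 and -3.12, bounds from above.

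Xcl1 varied widely among NK cells. A UMI was found in 29 of 58 cells of suffix 1 (50% [36.6, 63.4]) and 32 of 53 of suffix 2 (60.4% [46.0, 73.5]). Among these cells the median was 8 and 7 UMIs and the highest 99 and 89, and the top 5 cells held 61.6% and 57.6% of all Xcl1 UMIs. The cells with Xcl1 were deeper, with medians of 861 and 745.5 UMIs against 583 and 388 in those without. Cd160 was found in 7 of 29 cells with Xcl1 and 2 of 29 without in suffix 1, and in 10 of 32 and 0 of 21 in suffix 2. After each cell was thinned to 300 UMIs, Xcl1 status was taken anew from the thinned UMIs. Cells that lost their Xcl1 UMIs by thinning thus count as cells without it, and the split differs from the unthinned one. Cd160 was then found in 4 of 25 cells with Xcl1 and 2 of 23 without in suffix 1, and in 2 of 23 and 1 of 21 in suffix 2. By contrast, Il18r1 was found in 15 and 14 of 29 cells of suffix 1 and in 21 of 32 and 12 of 21 cells of suffix 2, and its level was 12.8 and 13.7 in cells with Xcl1 and 15.02 and 25.0 in those without. Thinned and split anew in the same way, Il18r1 was found in 7 of 25 cells with Xcl1 and 10 of 23 without in suffix 1. In suffix 2 it was found in 5 of 23 and 11 of 21. For Runx3 the thinned counts were 10 of 25 and 12 of 23, and 11 of 23 and 10 of 21. Counting the 3 markers together, 23 and 14 NK cells had none, 21 and 20 had 1, 12 and 16 had 2, and 2 and 3 had all. The cells with none had medians of 439 and 268 UMIs, against 901 and 717 in the rest. Of them 16 and 7 had a UMI of Il18r1, Il18rap, Car2, Cd244a or Slamf7, which leaves 7 in each suffix with a UMI of none of the 8 genes.

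**Figure D4:**
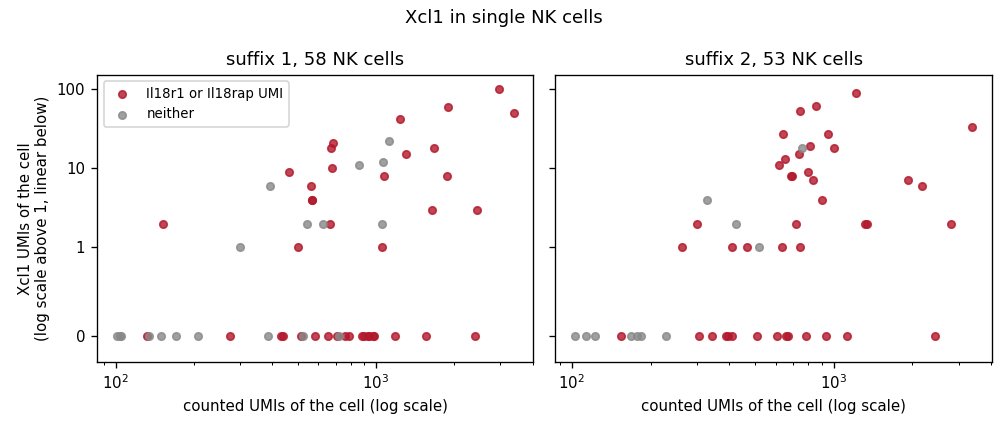
Xcl1 UMIs (y axis, log scale above 1) against counted UMIs (x axis, log scale) for each of the 58 NK cells of suffix 1 and 53 of suffix 2, coloured by a UMI of Il18r1 or Il18rap. Cells with 0 Xcl1 UMIs span the depth range and include many with an interleukin-18 receptor UMI, and the highest cells reach 99 and 89.

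T cell marker UMIs were spread over NK cells with and without Xcl1. A UMI of Cd28, Icos, Ctla4 or Lef1 was found in 35 of 58 and 28 of 53 cells, of which 18 and 19 also had Xcl1, and Cd28 alone in 29 and 24. A UMI of Icos, Ctla4 or Lef1 was found in 21 and 13 cells, 11 and 9 of them with Xcl1. When the cells with such a UMI were left out of suffix 1, a restriction chosen after the data were seen, 130 genes were above other cells, 97 of them among the 174. Xcl1 then had a log2 ratio of 7.13, Cd160 of 7.01, Il18r1 of 4.74, Il18rap of 2.99 and Car2 of 4.95. The genes of the T cell receptor complex apart from Cd247 were not analysed here.

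Since a share of cells with a UMI depends on depth, each cell was also thinned to 300 UMIs, which left out 10 and 9 NK cells and kept 48 and 44. Xcl1 was then found in 52.1% [37.2, 66.7] and 52.3% [36.7, 67.5] of NK cells. The same share was 11.4% and 9.74% in CD8_Tex, 0.909% and 2.28% in the CD4 names, 0.296% and 1.04% in B cells and 0.267% and 0.552% in neutrophils. The source of the UMIs in these names, free RNA among others, was not tested. CD8_Tex here means all cells of that name, with their macrophage transcripts. Those with 0 C1q UMIs had higher Xcl1 levels, 24.9 and 13.3 against 7.65 and 6.02, and their thinned shares are not given. Il18r1 was found in 35.4% and 36.4% of thinned NK cells and 11.8% and 12.7% of CD8_Tex, and Il18rap in 29.2% and 40.9% against 5.97% and 8.99%, with 8.27% and 7.96% in neutrophils. Car2 was found in 31.25% [18.7, 46.3] and 20.5% [9.80, 35.3] against 3.66% and 8.24%, and the intervals overlapped in suffix 2. Fasl reached 10.4% [3.47, 22.7] and 29.5% [16.8, 45.2] against 7.32% and 9.36%, so that the intervals of NK and CD8_Tex cells overlapped in suffix 1. Cd160 reached 12.5% [4.73, 25.2] and 6.82% [1.43, 18.7] against 2.50% and 5.62%, and its interval overlapped that of CD8_Tex in suffix 2. Unthinned, the NK shares were 22.4% and 35.8% for Fasl, 15.5% and 18.9% for Cd160, 50% and 62.3% for Il18r1, 51.7% and 64.2% for Il18rap and 55.2% and 39.6% for Car2.

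**Figure D5:**
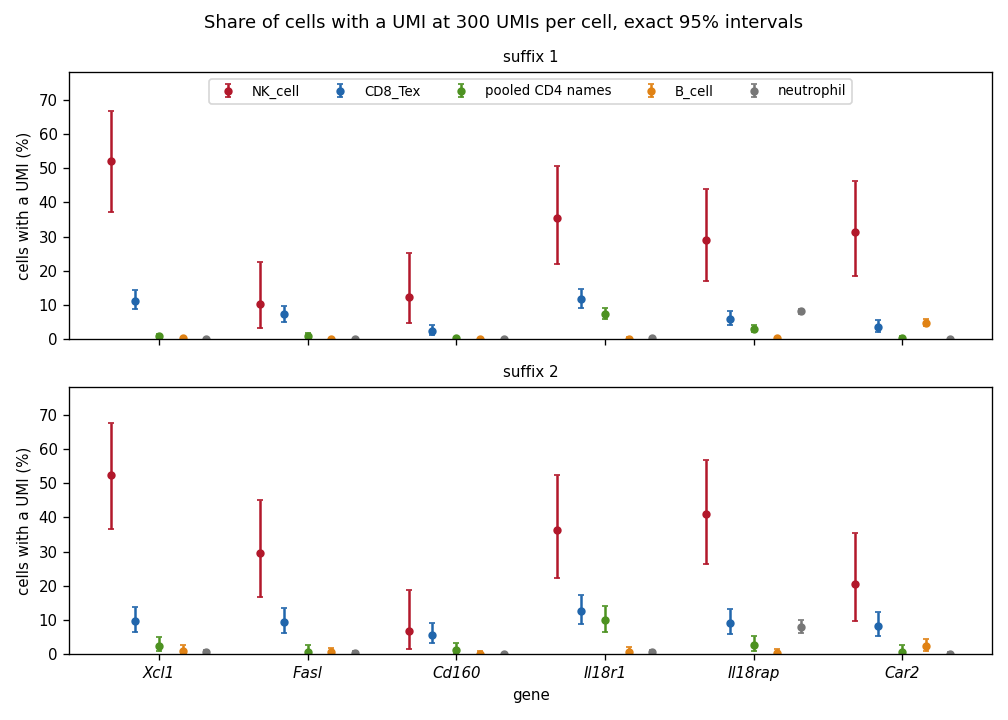
Percent of cells with at least 1 UMI (y axis) of 6 genes (x axis) after thinning each cell to 300 UMIs, in NK cells and 4 comparison names of suffix 1 and suffix 2; points are shares and bars exact 95% intervals. Xcl1 separates NK cells (52.1% and 52.3%) from every other name shown, whereas the intervals of NK cells and CD8_Tex overlap for Fasl in suffix 1 and for Cd160 and Car2 in suffix 2. CD8_Tex here includes the cells with C1q UMIs.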

How the data were processed

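The deposited table holds counts of UMIs per gene and cell barcode, not normalized, made by the authors with Cell Ranger on GRCm38 (mm10), with Seurat also named, per the submitters' processing notes; a second deposited file names each barcode. Of its genes 4099 complete rows were used, for 16383 cells of suffixes 1 and 2, and 1 incomplete row of 14020 values was left out. Gene positions were matched in GENCODE for 4067 of 4099 rows.

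For shares of cells with a UMI, cells were also thinned to 300 UMIs. Alternatives changed the scaling, the UMI minimum, the reference cells and the suffix. Counts were summed over the cells of a name within a suffix and scaled to 10000 UMIs. Intervals at 95% are exact: Clopper-Pearson for shares, Poisson for levels, conditional binomial for ratios. A count of 0 was set to a floor of 3 counts. The calling script was tested on simulated data drawn with counting error alone, so that test does not cover spread between cells. Suffixes are not tied to samples, so groups were not compared. Doublets were not searched for, and no label says how they were treated. Named genes are the 15 highest and 10 lowest ratios to other cells in suffix 1, the 15 highest in suffix 2, the 8 highest and 5 lowest in each suffix against CD8_Tex and the CD4 names, and members of 11 gene lists and 13 marker lists with 10 or more NK UMIs; of these, the ones that bear on the account are printed. Members and lists were chosen with earlier results of these data known. Some items are not reported here. Tables were computed in Python 3.11.15 with pandas 2.3.3 and numpy 2.4.6, intervals with scipy 1.17.1, and plots with matplotlib 3.10.9. Promoter sequences are from RefSeq.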

Additional observations from a re-analysis of the deposited data

How the results depend on the processing

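Of the genes above other cells in suffix 1 (174), 101 remained without S100a8 and S100a9, while 41 were above per cell instead of per UMI, 820 with equal weight per cell (no interval) and 96 without neutrophils in the reference. Those below (83) became 300 per cell and 361 with equal weight. The 50 above CD8_Tex became 5 per cell, 272 with equal weight, 32 in suffix 2 and 14 against CD8_Tex cells with 0 C1q UMIs. The 27 above the CD4 names became 43 per cell, 195 with equal weight, 15 in suffix 2, 42 with a minimum of 20 UMIs and 66 with none. Per-cell scaling shifted the median log2 ratio by -1.37 against other cells, -2.23 against CD8_Tex and 0.25 against the CD4 names. Without the richest NK cell the counts were 171, 74, 50 and 26, and no NK cell had 5 or more C1q UMIs.

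The sign changed for Rps27 per cell (-0.26, from 1.11), for Pdcd1 in suffix 2 (-1.75, from 2.47) and for Fcgr3 against CD8_Tex cells with 0 C1q UMIs (0.41, from -2.45); the cause was not tested. NK shares were 1.67%, 5.89%, 9.47% and 5.33% of lymphocyte names in suffixes 1 to 4, and 0.779%, 2.52%, 1.77% and 2.09% of barcodes not named neutrophil. Thinning gave shares of 10.4% for Fasl in suffix 1, 6.82% for Cd160 in suffix 2, 31.25% and 20.5% for Car2 and 35.4% and 36.4% for Il18r1.

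The choices of the C1q-free CD8_Tex cells, of a reference without neutrophils and of NK cells without T cell marker UMIs were made after seeing the data. No paired analysis was possible because barcode suffixes are not tied to samples; leaving out each replicate was not run for the same reason. With 58 and 53 NK cells, genes of a few UMIs have wide intervals; a suffix and its group cannot be told apart.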
